A study of Homo sapiens with 4 samples.

Results

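The tubulin isotypes described here are 10 genes that encode the subunits of microtubules and their nucleator: 4 alpha-tubulin genes (TUBA1A, TUBA1B, TUBA1C and TUBA4A), 5 beta-tubulin genes (TUBB, TUBB2A, TUBB3, TUBB4B and TUBB6) and the gamma-tubulin gene TUBG1. They were taken as every probe set whose single annotated gene symbol is one of these names, which gave 20 probe sets of 54613 on the array that are not controls, for 10 genes of 19775. One more probe set, tied to a member and to another beta-tubulin gene at once, was left out of the members. The genes were put together with the difference between the groups already known, so their own differences are a description and carry no test.

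Cells of the human colon carcinoma line HCT116 received control siRNA (2 arrays) or TET1 siRNA (2 arrays), with 1 Affymetrix expression array per sample. The TET1 enzyme converts 5-methylcytosine to its oxidised forms, a step towards removal of the methyl mark. All samples shared the line and the lipid transfection reagent, and no source used here gives the siRNA sequences or the time after transfection. The labels give 1 TET1 siRNA condition, so loss of TET1 and other effects of that siRNA cannot be told apart. The submitters call the samples biological duplicates.

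The trimmed mean signal, leaving out the top and bottom 2%, was 100.01 on every array, and the median signal lay between 13.9 and 15.5. TET1 itself read 58.1 and 59.6 with control siRNA against 14.6 and 15.0 with TET1 siRNA (log2 difference -1.28, SE 0.20, limma adjusted p = 9.69e-04). Of 10 colon epithelial markers 7 lay above the filter on dim probe sets, with KRT18, KRT19 and EPCAM the brightest, while CDX1, CDX2 and MUC2 were below it. CDH1, the epithelial cadherin gene, fell by 1.17 (log2) and KRT8 rose by 0.32, and the part of epithelial state in the tubulin values was not tested. Summed signals of that list were 17524.7 and 18163.6 in control cells and 19480.8 and 19542.2 with TET1 siRNA. Most of each sum came from KRT18, KRT19, EPCAM and KRT8. KRT20 and VIL1 lay close to the filter, with control means of 18.2 and 14.45.

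Microtubules are hollow polymers of alpha- and beta-tubulin heterodimers, and gamma-tubulin sits in a ring complex that templates new ones at the centrosome. The isotypes of a class have nearly the same folded body and differ mainly in the acidic tail at the end of the chain, where motors, severing enzymes and tubulin-modifying enzymes bind. Cells also adjust tubulin synthesis to demand: when free dimers accumulate, the adaptor TTC5 recognises the first residues of newly made tubulin on the ribosome and recruits an RNA deadenylase complex that leads to decay of the tubulin mRNA. Because isotype genes are close copies of one another, array probes for one can bind transcripts of another.

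The isotypes differed among themselves in direction. TUBB, the main beta-tubulin of dividing cells, was at 34.7% to 51.1% of its control signal over its 3 probe sets. TUBA1A, an alpha-tubulin best known from developing neurons, was at 216% of control, and TUBA4A, whose protein lacks the final tyrosine of other alpha-tubulins, at 173%. TUBB6 was modestly higher (127%) and TUBG1 modestly lower (81.6%). TUBA1B and TUBA1C, the alpha-tubulins with broad expression, and TUBB4B stayed between 96.1% and 108% of control in every probe set above the filter. In RNA from whole cultures, fewer cells making a transcript and less of it per cell cannot be told apart.

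The upstream sequences of the 3 genes with the largest differences are shown because TET1 acts on cytosine in CpG dinucleotides, and the windows differ in how many they hold. Each is the 250 bases before the annotated start, 5′ to 3′, from RefSeq (GRCh38.p14), in lower case with every CpG in capitals. TUBA1A lies on the minus strand (chr12:49189081-49189330) and has 11 CpGs there. TUBA4A lies on the minus strand (chr2:219253919-219254168) and has 23. TUBB lies on the plus strand (chr6:30720102-30720351) and has 21 before the first of its annotated starts.
TUBA1A: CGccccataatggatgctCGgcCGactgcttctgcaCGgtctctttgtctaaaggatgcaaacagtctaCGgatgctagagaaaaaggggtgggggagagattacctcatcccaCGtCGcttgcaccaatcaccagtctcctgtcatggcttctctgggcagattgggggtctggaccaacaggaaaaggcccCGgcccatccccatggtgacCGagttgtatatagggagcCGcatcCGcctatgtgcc
TUBA4A: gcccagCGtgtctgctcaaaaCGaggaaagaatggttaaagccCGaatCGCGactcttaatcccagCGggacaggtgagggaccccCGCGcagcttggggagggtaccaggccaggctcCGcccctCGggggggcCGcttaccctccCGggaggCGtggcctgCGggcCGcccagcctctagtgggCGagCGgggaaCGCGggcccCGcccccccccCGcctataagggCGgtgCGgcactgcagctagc
TUBB: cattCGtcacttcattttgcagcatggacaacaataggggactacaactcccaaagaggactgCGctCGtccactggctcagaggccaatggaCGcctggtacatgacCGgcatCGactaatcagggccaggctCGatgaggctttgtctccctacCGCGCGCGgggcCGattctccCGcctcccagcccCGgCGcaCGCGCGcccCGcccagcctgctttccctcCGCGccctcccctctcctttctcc

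All 10 genes matched the RefSeq table, with 15 start windows between them. Across 35116 windows of the same length the median was 11 CpGs and the quartiles were 3 and 23. The second TUBB window held 38, as did that of TUBA1B, and the window of TUBA1A was at the median. The highest was 43, at 1 of the TUBB6 starts, and 8 of the 15 windows held at least 23. The methylation of these windows was not measured. A CCAAT box (letters CCAAT on either strand) was found in 9 of the 15 windows, against 32% of all windows. These belonged to 7 genes, TUBA1A and TUBB among them. The GC box (GGGCGG on either strand) was in 9 of the 15, from 8 genes, against 42.6% of all windows. TUBA1A and TUBB4B had none. The TATAAA motif was in 1 window (TUBB2A), against 10.7%. TTTGAA, the core of the cell cycle homology element, was in 3 (TUBA1C and TUBB4B), against 13.3%. The E-box CACGTG was in 2 (TUBA1C and TUBB), against 6.34%. These are matches of letters only, over genes with 1 to 3 windows each. Every TUBA1C window held CCAAT, and those from chr12:49227676 and chr12:49227769 overlap, so the same site can be counted in both.

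Among the alpha-tubulins, TUBA1A gave signals of 2574.4 and 2710.3 under control siRNA and 5826.0 and 5573.3 under TET1 siRNA. Both TET1 siRNA arrays were above both controls by far more than the spread within either pair. The means were 2642.35 ± 96.1 and 5699.65 ± 179 (SD, n = 2 each), a ratio of 2.16, and the difference of log2(signal + 16) was 1.11 (SE 0.07). It was 1.07 to 1.14 over 9 alternative settings. Its single probe set, 209118_s_at, carries the suffix _s_at, which the array maker gives to sets whose probes match more than one transcript, so transcripts of close relatives may add to it.

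TUBA4A was dimmer, at 274.7 and 252.1 against 409.5 and 500.2, again with no overlap. Its mean went from 263.4 ± 16 to 454.85 ± 64.1 (SD, n = 2 each), and the log2 difference was 0.75 (SE 0.11). The TET1 siRNA arrays differed from each other more than for TUBA1A, and leaving out TET1 siRNA replicate 2 gave 0.61, and leaving out replicate 1 of that group gave 0.89. Its probe set (212242_at) has the plain suffix _at, given to sets designed for 1 gene.

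TUBA1B and TUBA1C lie on either side of TUBA1A on chromosome 12, with no other measured gene between the 3, and their signals hardly moved. The brightest TUBA1B probe set, 212639_x_at, read 7910.8 and 8215.6 in control cells and 8642.2 and 8755.8 with TET1 siRNA (log2 difference 0.11, SE 0.07). In the other 4 bright TUBA1B sets the arrays of the groups overlapped, and over all 5 the differences ran from -0.04 to 0.11 with a median of 0.05. A sixth set, 1565668_at, was below the filter, with signals of 5.3 to 10.1. The TUBA1C sets read 6682.6 and 6787.4 against 7127.1 and 7123.2 (209251_x_at, log2 difference 0.08, SE 0.06) and 6029.5 and 6239.8 against 6173.8 and 7057.3 (211750_x_at, 0.11, SE 0.08). The second of these was 0.009 when TET1 siRNA replicate 2 was left out and 0.202 when replicate 1 of that group was. All bright sets of both genes carry the suffix _x_at, for probes shared with similar sequences, so they cannot be assigned to 1 gene with certainty.

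**Figure D1:**
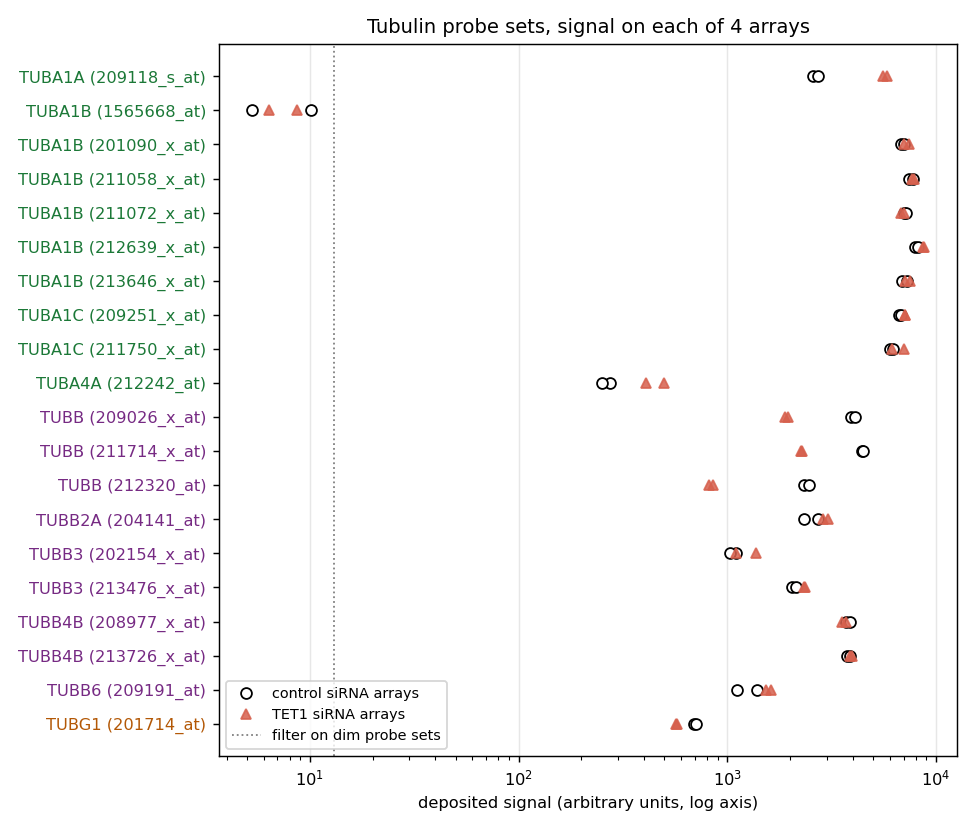
Deposited signal of each of the 20 tubulin probe sets (rows, with the gene and probe set) on the 4 arrays, on a log axis; circles are the 2 control siRNA arrays, triangles the 2 TET1 siRNA arrays, and the dotted line is the filter at a signal of 13.1. Label colours mark alpha (green), beta (purple) and gamma (orange) isotypes. The triangles of TUBB sit left of its circles in all 3 rows, those of TUBA1A and TUBA4A sit right, and those of most TUBA1B rows cover the circles.

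Among the beta-tubulins, TUBB was lower in all 3 of its probe sets. The set designed for TUBB alone, 212320_at, read 2334.1 and 2477.7 in control cells and 852.2 and 818.9 with TET1 siRNA (log2 difference -1.51, SE 0.07). The sets with shared probes read 3908.9 and 4098.5 against 1881.7 and 1955.4 (209026_x_at, log2 difference -1.06, SE 0.06) and 4417.0 and 4453.5 against 2269.8 and 2260.2 (211714_x_at, -0.97, SE 0.06). No TET1 siRNA array came near a control array in any of them. The sets with shared probes kept 47.9% and 51.1% of the control signal, against 34.7% in 212320_at. That difference between probe sets is a description, and binding of other beta-tubulin transcripts to the shared probes was not tested.

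The other beta-tubulins were not lower, apart from 1 TUBB4B probe set whose groups overlap. TUBB6, a beta-tubulin of many non-neuronal tissues, read 1108.9 and 1381.6 in control cells and 1613.1 and 1538.6 with TET1 siRNA, a log2 difference of 0.34 (SE 0.11). Its control arrays lay further apart than its TET1 siRNA arrays, and the difference was 0.19 without control siRNA replicate 1 and 0.50 without control siRNA replicate 2. TUBB2A, a neuronal beta-tubulin also made in epithelial lines, read 2729.5 and 2342.1 against 3043.6 and 2862.2 (0.22, SE 0.09), and it was 0.11 without control siRNA replicate 2 and 0.33 without control siRNA replicate 1.

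TUBB3 is used as a neuronal marker and is also found in carcinoma cells. Its brighter set, 213476_x_at, read 2034.7 and 2135.2 against 2372.0 and 2321.7 (log2 difference 0.17, SE 0.06). The other, 202154_x_at, read 1100.2 and 1027.5 against 1105.9 and 1369.3 (0.21, SE 0.11), where the nearest arrays of the groups almost touch; leaving out TET1 siRNA replicate 2 gave 0.06, and leaving out replicate 1 of that group gave 0.36. Of 10 other neuronal markers only SYT1 and SNAP25 lay above the filter, and RBFOX3, which marks mature neurons, read 0.6 to 8.8. The summed signal of that list was 762.6 and 843.4 in control cells and 1168.6 and 1107.3 with TET1 siRNA, most of it from SYT1. SNAP25 did not pass (log2 difference -0.11), and its other set above the filter was at -1.17 and passed. Markers below the filter went both ways. The part of that list in the TUBB3 values was not tested.

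TUBB4B, a beta-tubulin of most cells and of cilia, was nearly level. One set read 3690.1 and 3868.5 against 3707.3 and 3558.3 (208977_x_at, log2 difference -0.06, SE 0.07) and the other 3746.3 and 3857.0 against 3941.3 and 3863.0 (213726_x_at, 0.04, SE 0.06). The sets differ in sign, and each difference is no larger than its SE. Of 7 multiciliated cell markers on the array 4 lay above the filter, none over a signal of 38.3, FOXJ1 was below it, and none passed the test between groups. Fibroblast markers were dim apart from COL1A1, with 3 of 8 above the filter.

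Gamma-tubulin was represented by TUBG1, which read 696.5 and 709.6 in control cells and 575.7 and 571.2 with TET1 siRNA. The pairs were tight and did not overlap, and the log2 difference was -0.29 (SE 0.07), or 81.6% of the control mean. Its neighbour on chromosome 17, the second gamma-tubulin gene TUBG2, is not a member; it read 57.3 and 63.1 against 55.6 and 56.0 (log2 difference -0.09, SE 0.17, limma adjusted p = 0.78).

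**Figure D2:**
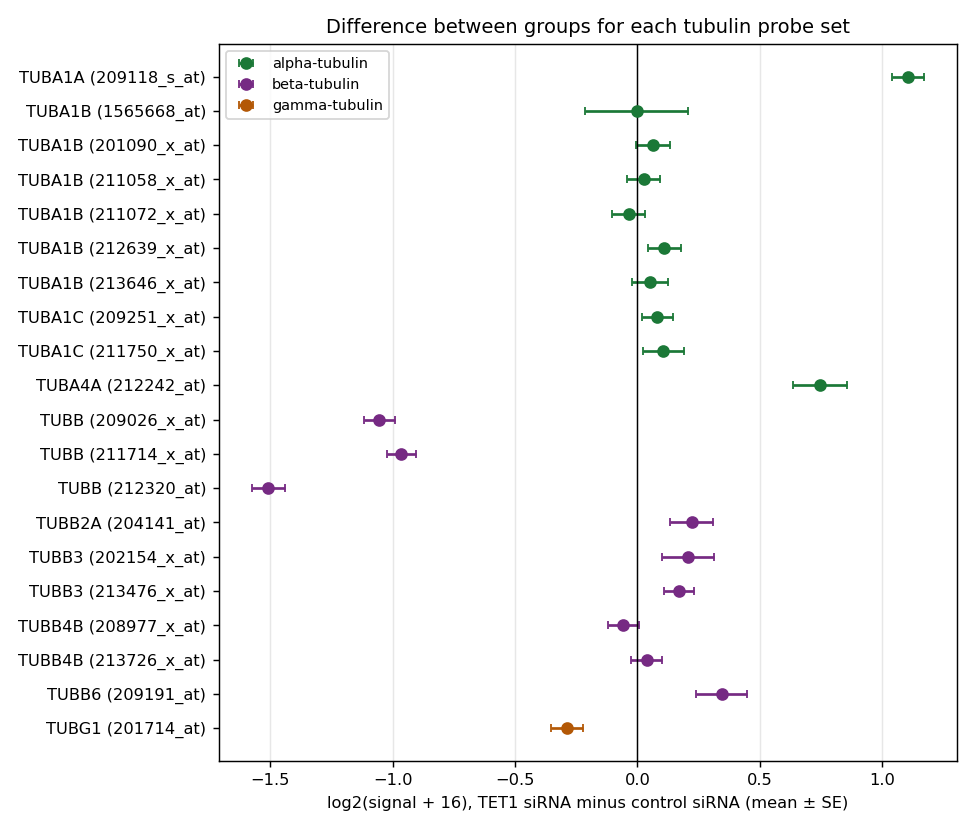
Difference of log2(signal + 16) between TET1 siRNA and control siRNA for each tubulin probe set (points, mean difference; bars, ± SE from limma, 2 arrays per group), coloured by class. The 3 TUBB sets lie between -1.51 and -0.97, TUBA1A at 1.11 and TUBA4A at 0.75, and the remaining sets lie between -0.29 and 0.34.

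By class, the median log2 difference was 0.07 over the 10 alpha probe sets and 0.04 over the 9 beta probe sets, beside -0.01 over all 27306 probe sets above the filter; the single gamma set was at -0.29. Without TUBA1A the alpha median was 0.06, and without TUBB the beta median was 0.19. With each gene at its brightest probe set, all 4 alpha genes and 4 of 5 beta genes were above 0, with medians of 0.43 and 0.17, beside 0.01 for all 12389 genes tested. TUBA1B alone supplied 6 of the 10 alpha probe sets, so the medians over probe sets weight the genes unequally. Within the alpha class the values ran from -0.04 to 1.11 and within the beta class from -1.51 to 0.34. Without _x_at and _s_at probe sets the medians were 0.37 over 2 alpha sets (1 of them below the filter) and 0.22 over 3 beta sets.

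In the fit over all genes, 5 of the 10 members (TUBA1A, TUBA4A, TUBB, TUBB6 and TUBG1) were past the threshold, where 21.9% of all genes were; 3 were higher (11.2% of all genes) and 2 lower (10.6%). With each probe set tested by itself, 7 of the 19 above the filter were, against 16.1% of all probe sets, with 3 higher (7.76% of all) and 4 lower (8.31%). At the brightest probe set the groups did not overlap in 10 of 10 genes, against 59% of all genes. In 13 of 20 member probe sets the 2 groups did not overlap, against 56.1% of all probe sets above the filter. The members were chosen on this comparison, so nothing is read from these counts.

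The genes around the members gave a comparison the choice of members did not use. Of 16 measured genes next to a member on the chromosome and not members themselves, 3 fell and none rose (18.8%), close to the 21.9% of all genes; these were picked by position after the members' values were known. FLOT1, which follows TUBB and encodes a membrane raft protein, had a log2 difference of -0.28 (limma adjusted p = 0.0439). MDC1, on the other side of TUBB, was at -0.22 (adjusted p = 0.262). SLC34A3, a phosphate transporter gene beside TUBB4B, fell by 0.65 (adjusted p = 0.0368) and IMPA2, an inositol phosphatase gene beside TUBB6, by 0.42 (adjusted p = 0.0331). No measured neighbour of TUBA1A other than TUBA1B and TUBA1C was adjacent to it.

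Genes that fold, modify, nucleate, bind or sever tubulin were then tested with all other genes. Of 139 listed in 7 groups, 129 had a probe set and 111 lay above the filter; 9 rose and 19 fell, 25.2% against 21.9% of all genes. The median log2 difference of the 111 was -0.03, beside 0.01 for all genes tested. The lists were written with earlier results of these data known.

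Of the 12 other tubulin genes 8 had a probe set of their own and 5 lay above the filter, of which 1 fell. TUBE1 (epsilon-tubulin, a centriole component) read 142.7 and 153.8 against 108.4 and 80.4, a log2 difference of -0.58 (SE 0.15, limma adjusted p = 0.0173). The call ended in 5 of 14 moderated alternatives. These were the fits without control siRNA replicate 2 (adjusted p = 0.089) or TET1 siRNA replicate 2 (log2 difference -0.40, adjusted p = 0.141), with dim genes kept (0.0717), with no variance trend (0.0809), and with the gene's probe sets averaged (log2 difference -0.31, adjusted p = 0.245). TUBE1 had no other probe set above the filter, so its average took in sets below it. TUBD1, TUBG2, TUBB4A and TUBAL3 did not pass.

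Tubulin needs the chaperonin CCT, prefoldin and the cofactors TBCA to TBCE to fold. Of 19 measured folding genes none rose and 3 fell, with a median of -0.01. CCT7, a chaperonin subunit gene, read 2086.2 and 2136.4 against 1353.1 and 1501.2 (log2 difference -0.56, SE 0.07, limma adjusted p = 2.83e-04). CCT5, another subunit, read 2119.7 and 2101.6 against 1589.0 and 1692.1 (-0.36), and its second probe set was at -0.22 (limma adjusted p over probe sets = 0.582). The CCT5 call ended with probe sets averaged (-0.29, adjusted p = 0.127) and with no variance trend (0.0846). TBCEL, a relative of cofactor E, read 169.7 and 186.5 against 108.9 and 111.1 (-0.62, adjusted p = 0.00416). Its 2 other sets above the filter were at -0.67 and -0.16 and did not pass (limma adjusted p over probe sets 0.086 and 0.549). The other 5 measured chaperonin subunits did not pass, nor did TBCA, TBCB, TBCC, TBCD and TBCE.

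Of 12 measured genes of tubulin mRNA decay 1 rose, 2 fell and 9 did not pass, with a median of -0.03. The share past the threshold was 25%, beside 21.9% of all genes. TTC5, the adaptor that recognises nascent tubulin, read 126.1 and 108.1 against 84.7 and 76.1 (log2 difference -0.46, SE 0.15, limma adjusted p = 0.0421). That call ended in 9 of 14 moderated alternatives, the removal of any 1 array among them (adjusted p 0.0545 to 0.192). The 2 other TTC5 sets above the filter were at -0.23 and -0.02 and did not pass (limma adjusted p over probe sets 0.561 and 0.977). SCAPER, which links TTC5 to the deadenylase, was at 0.02 (adjusted p = 0.964). In the CCR4-NOT deadenylase complex, CNOT2 (a scaffold subunit) fell from 508.8 and 522.6 to 302.4 and 303.0 (-0.74, adjusted p = 1.65e-04), while the nuclease subunit CNOT7 rose from 2491.5 and 2457.8 to 3287.1 and 3284.6 (0.41, adjusted p = 7.31e-04). The second CNOT2 set above the filter was at -0.47 and passed (limma adjusted p over probe sets = 0.0133). For CNOT7, another set at 0.42 passed (0.00221) and another at -0.19 did not (0.191). Averaged over every probe set of the gene, those below the filter included, CNOT2 was at -0.14 (adjusted p = 0.45). That average for CNOT7 was -0.01 (adjusted p = 0.971), and CNOT7 did not pass with no variance trend (0.0645).

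Genes for enzymes that modify tubulin, and for their partners, mostly did not pass. Of 26 on the array 20 lay above the filter, 1 rose and 1 fell, with a median of -0.07. The share past the threshold was 10%, beside 21.9% of all genes. TTL, the ligase that restores the final tyrosine of alpha-tubulin, read 435.8 and 485.7 against 271.9 and 306.9 (log2 difference -0.64, SE 0.10, limma adjusted p = 0.00103). Its 2 other probe sets were at -0.60 and 0.18. The set at -0.60 passed (limma adjusted p over probe sets = 0.00476), while that at 0.18 did not (SE 0.25, 0.692). Without _x_at and _s_at sets TTL was represented by the set at 0.18 (adjusted p = 0.692). Averaged over its probe sets TTL was at -0.20 (adjusted p = 0.273). TPGS1, a subunit of the polyglutamylase complex, was dim and rose from 45.4 and 40.0 to 71.1 and 73.3 (0.59, adjusted p = 0.0281). It no longer passed without control siRNA replicate 2 (adjusted p = 0.104), TET1 siRNA replicate 1 (0.111) or TET1 siRNA replicate 2 (0.133), with dim genes kept (0.106), or with its probe sets averaged (0.26, adjusted p = 0.283). No other TPGS1 set lay above the filter, so its average took in sets below it. The vasohibins VASH1 and VASH2, which remove the final tyrosine, the acetyltransferase gene ATAT1 and the deacetylase gene HDAC6 did not pass.

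For microtubule nucleation 1 of 20 measured genes rose and 4 fell, with a median of -0.06. HAUS5, a subunit of the augmin complex that starts branches on spindle microtubules, read 134.6 and 152.3 against 60.0 and 69.8 (log2 difference -0.98, SE 0.15, limma adjusted p = 7.24e-04). Of its 2 other sets, that at -0.80 passed (limma adjusted p over probe sets = 0.0164) and that at -0.37 did not (0.202). TUBGCP4, a subunit of the gamma-tubulin ring, fell by 0.54 (adjusted p = 0.011); it was no longer past the threshold without control siRNA replicate 2 (adjusted p = 0.062) or TET1 siRNA replicate 1 (0.0947), without _x_at and _s_at sets (0.052), or with no variance trend (0.0673). MZT1, which helps the ring complex bind the centrosome, read 1137.0 and 961.9 against 671.1 and 758.5 (-0.54), and its other probe set was at 0.01. The MZT1 call ended with probe sets averaged (-0.27, adjusted p = 0.0931) and with no variance trend (0.072). AKAP9, a scaffold at the Golgi and centrosome, rose from 140.3 and 156.6 to 264.9 and 286.7 (0.83, adjusted p = 4.13e-04). No other AKAP9 set lay above the filter. Averaged over all its probe sets, those below the filter included, AKAP9 was at 0.25 and did not pass (adjusted p = 0.245). The fourth gene that fell was TPX2 (-0.37), named after its value was seen. The other ring subunits TUBGCP2, TUBGCP3, TUBGCP5 and TUBGCP6 did not pass at their brightest probe sets, with log2 differences from -0.145 to 0.295. The 2 dimmer TUBGCP3 sets above the filter were at -0.77 and -0.27, and 1 of them passed in the fit over probe sets.

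Of 24 measured microtubule-binding and plus-end genes 3 rose and 5 fell, with a median of 0.05. PRC1, which crosslinks the antiparallel microtubules of the midzone, read 815.9 and 827.1 against 445.1 and 486.8 (log2 difference -0.80, SE 0.08, limma adjusted p = 7.19e-05). NUSAP1, a spindle bundling protein, read 1612.0 and 1571.8 against 905.0 and 1017.8 (-0.72). CLASP2, a plus-end stabiliser, fell by 0.62 at its brightest probe set. Its 3 other sets were lower by less and did not pass (adjusted p over probe sets 0.142 to 0.316), and the average over all its probe sets was -0.33 (adjusted p = 0.12). The paralogue CLASP1, picked out with its value known, rose (0.50, limma adjusted p = 0.0206). Its other set above the filter was at 0.26 and did not pass, and the CLASP1 call was not followed over the alternatives. CAMSAP2, which caps microtubule minus ends away from the centrosome, rose from 342.7 and 270.7 to 542.0 and 581.0 (0.85, adjusted p = 3.35e-04), and its 2 other probe sets were at 0.40 and 0.78.

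Destabilising and severing proteins had the highest share past the threshold, 6 of 11 measured (54.5%), with 3 rising, 3 falling and a median of 0.01. KATNAL1, a katanin-like severing enzyme, read 191.3 and 209.3 against 415.4 and 406.1 (log2 difference 0.98, SE 0.10, limma adjusted p = 6.36e-05). KATNBL1, a katanin regulator, rose by 0.66, and its other sets above the filter were at 0.41 and 0.18. That call ended with probe sets averaged (0.29, adjusted p = 0.128) and without _x_at and _s_at sets (0.18, adjusted p = 0.631). Among kinesins that act on microtubule ends in mitosis, KIF18B and KIF2C fell. KIF18B read 268.2 and 324.3 against 154.2 and 191.1 (-0.73, adjusted p = 0.00227, or 0.0554 with no variance trend) and KIF2C 866.3 and 887.9 against 599.1 and 561.3 (-0.58, adjusted p = 3.84e-04), while KIF18A did not pass (-0.35, adjusted p = 0.073). The remaining 2, named after their values were seen, were STMN3 (a stathmin, -0.56, limma adjusted p = 8.74e-04) and KIF2A (0.28, adjusted p = 0.0465). The other STMN3 set above the filter was at -0.82 and passed, while that of KIF2A was at 0.03 and did not. These 2 calls were not followed over the alternatives. With 11 genes this share has a wide counting error and was not tested against the rest.

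**Figure D3:**
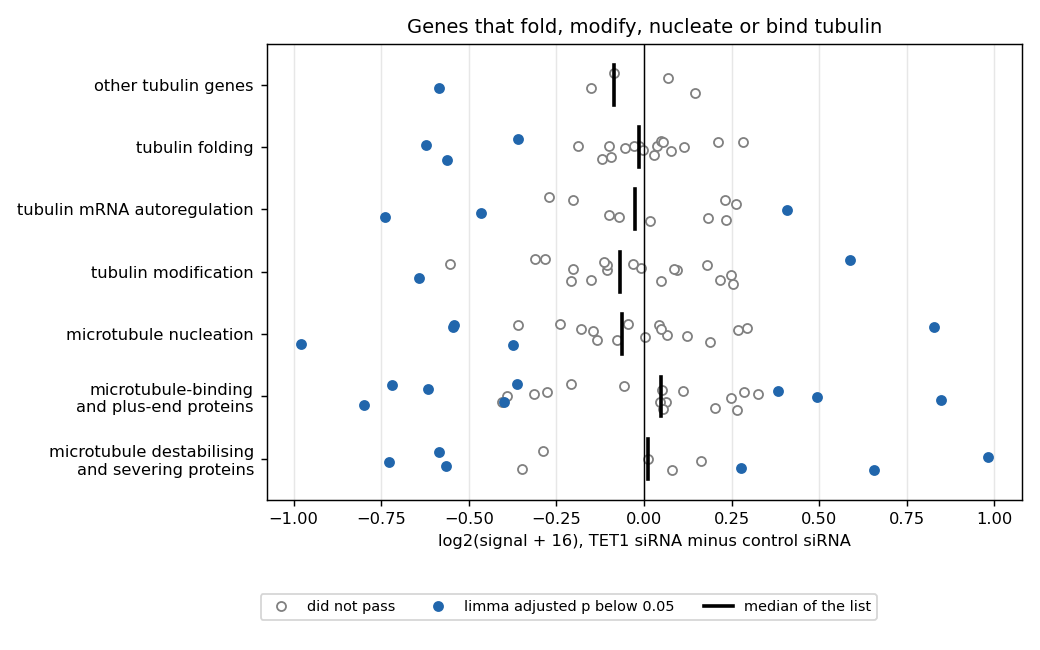
Difference of log2(signal + 16), TET1 siRNA minus control siRNA, for each measured gene (points) of the 7 lists of tubulin partners; filled points passed limma at an adjusted p of 0.05, open points did not, and black bars are list medians. Every median lies between -0.09 and 0.05, and the lists of nucleation, binding and severing proteins hold filled points on both sides of 0.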

How the data were processed

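Each deposited value is a probe set's linear intensity, made by the authors from Affymetrix arrays of biotin-labelled cRNA primed with oligo(dT), per the labels' protocols, which favours transcript 3' ends. The sources used here do not name the software or how signals were background-corrected and scaled. Of 54675 probe sets, 62 controls were left out, and the platform annotation gave 1 symbol for 41091, several for 1801 and none for 11721; current symbols came from RefSeq (41037 probe sets matched).

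Differences are of log2(signal + 16), which understates changes of dim genes. A gene was represented by its brightest single-symbol probe set, and 12389 genes with a mean log2 value above the median of all probe sets (4.86, a signal of 13.1) were tested with limma 3.58.1 in R 4.3.3 (variance trend, two-sided, Benjamini-Hochberg over all genes, threshold 0.05), with 2 residual and 9.24 prior degrees of freedom. With 2 arrays a side the smallest exact permutation p is 0.33, and p-values therefore depend on limma's pooled variance. Standard errors of members come from the same model over all probe sets.

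The members and lists were chosen with earlier results of these data known. Named genes were every member, TET1, up to 4 passing genes per list by size of change (plus up to 2 in the other direction where those 4 agree in sign), and up to 3 brightest per marker list. Alternatives were other normalizations, pseudocounts, filters, variance models and probe set choices, the replicate block, and each array left out. The average over a gene's probe sets took in every single-symbol set, those below the filter included. Limma was also run on simulated data of 12389 genes, with independent normal noise drawn from its own fitted variance prior. It recovered 30%, 78% and 100% of genes given log2 changes of 0.5, 1 and 2 and 68% of those given -1. Of its 145 calls 7 were false. Only 50 genes were changed at each size, a smaller share than the 21.9% of genes called in the data. The noise met limma's assumptions by construction, so these figures do not give its error rate in the data. Same-numbered arrays did not deviate together over genes (r = 0.00554), so numbers were not taken as pairs. Figures were drawn with matplotlib 3.10.9.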

Additional observations from a re-analysis of the deposited data

How the results depend on the processing

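Where the groups did not overlap, another pseudocount, the replicate block or the loss of an array cannot change the sign of a difference. Only quantile normalization and median centring could, and no such bright tubulin probe set changed sign in them. Among bright sets with overlapping groups, 211058_x_at of TUBA1B went from 0.026 to -0.002 without control siRNA replicate 1. The class medians moved most without _x_at and _s_at probe sets, to 0.37 for alpha and 0.22 for beta. The alpha median was 0.11 with each array centred on its median and 0.043 to 0.113 with 1 array left out, and the gamma value was -0.31 with quantile normalization, -0.25 with median centring and -0.27 with a pseudocount of 64.

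Counts of genes higher and lower among all genes were 885 and 909 without _x_at and _s_at probe sets, 442 and 542 with a constant prior variance in place of a trend, 905 and 854 when dim genes were kept, and 772 and 892 when probe sets of a gene were averaged. Tubulin partner genes that rose and fell were 5 and 14, 5 and 9, 6 and 16, and 3 and 12 in the same settings. Limma without moderation called 0 in either direction (2679 genes and 27 partner genes at unadjusted p below 0.05), since 2 residual degrees of freedom remain. With 1 array left out, and the lone array assumed to vary like the other group, 813 to 1159 genes were higher and 873 to 982 lower, and 5 to 8 partner genes rose and 15 to 18 fell. The replicate block gave 1442 and 1349 genes, and 9 and 20 partner genes. Of 21 named partner genes, 8 passed in every moderated alternative that measured them. CNOT7 reversed to -0.007 with the mean of its probe sets, and the cause was not tested. TTL was at 0.18 without _x_at and _s_at sets. The TTL sets that fell carry the suffix _s_at, so that value comes from another probe set (SE 0.25), which did not pass. The number of arrays limits all of these.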

Other observations

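Probe sets tied to several tubulin genes at once entered no comparison of members or of genes. Those above the filter were part of the 27306 probe sets used as background. The annotation gives 2 probe sets for the same pair of alpha-tubulin genes, neither a member. They read 72.6 and 113.3 with control siRNA against 134.1 and 144.5 with TET1 siRNA, and 91.4 and 78.3 against 142.0 and 121.2. In both, the TET1 siRNA arrays were the higher ones, with log2 differences of 0.54 and 0.55, and no test of them is given here. A probe set shared by TUBB2A and another beta-tubulin gene read 251.6 and 208.1 against 230.7 and 254.7 (log2 difference 0.08), where the groups overlap.

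The beta-tubulin pseudogene TUBBP5 read 26.9 and 34.0 with control siRNA against 35.5 and 40.5 with TET1 siRNA, a log2 difference of 0.22. TUBA4B, which neighbours TUBA4A, read 11.5 and 16.7 against 11.3 and 24.2 near the filter, so its values do not order the groups.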
